A study of Drosophila melanogaster with 30 samples.

Results

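Hippo signalling and the Fat/Dachsous system are linked pathways that set how far the wing disc, the larval precursor of the wing, grows. The genes described are hpo, wts, yki, ft, ds, fj, d, ex, Mer and kibra, taken as a list of pathway names. No cut on their values was used, but earlier results of these data were known when the list was chosen. All 10 have a row among the 17868 genes of the wing disc RNA count table, and all 10 passed the filter on low counts that left 10359 genes. None of the 10 differed between genotypes after adjustment, and for each of them the 95% interval of every difference lay within 2-fold in either direction.

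The study asked how GAGA factor (GAF), the DNA-binding product of Trithorax-like (Trl), shapes chromatin contacts and expression in Drosophila melanogaster. RNA came from wandering 3rd instar larvae of 3 Halo-tagged lines, with 30 wing discs pooled in each replicate and 3 replicates per line. The lines are labelled delta-POZ, read here as GAF without its POZ domain, which lets GAF molecules join one another; delta-Q, read as GAF without its Q (glutamine-rich) domain; and Halo-Trl, which carries the Halo tag without either deletion. The same lines gave 2 wing disc contact maps each, from larvae labelled homozygous. All 3 lines carry the tag, and each genotype is a single line in these labels, so the deletion and the background of its line cannot be told apart. Contact maps of embryos aged 2 to 2.5 h, 4 of GAF(deGradFP) and 4 of the sfGFP-GAF(N) control, are used for genes of the wider pathway.

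In the Hippo pathway, the kinase Hippo activates the kinase Warts, which phosphorylates the co-activator Yorkie and keeps it out of the nucleus. Nuclear Yorkie works with the DNA-binding protein Scalloped to turn on genes for growth and survival. Expanded, Merlin and Kibra act upstream of Hippo at the apical cell cortex. The giant cadherin Fat and its ligand Dachsous form a second input across cell boundaries: Four-jointed tunes their binding, and the unconventional myosin Dachs carries the signal on to Warts. Much of this control acts on proteins and their location, which RNA levels do not report.

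The RNA libraries held 57673928 to 85575887 reads in genes, and levels are given as CPM, read counts scaled by edgeR to a common effective library size. Genes of the mitochondrial genome took 15.1% of reads in delta-Q 1 and 31.1% in delta-Q 3, the lowest and highest shares. Trl itself was at 78.4, 67.7 and 61.0 CPM in delta-POZ, 56.6, 60.3 and 64.0 CPM in delta-Q, and 51.3, 49.8 and 41.8 CPM in Halo-Trl. It was higher in delta-POZ than in Halo-Trl (log2 0.54, edgeR adjusted p = 0.0234), a call lost without delta-POZ 1 (adjusted p = 0.0732), delta-POZ 2 (0.0574), Halo-Trl 2 (0.0669) or Halo-Trl 3 (0.104). A count of the whole gene cannot show whether a domain is missing. Summed markers of the wing disc epithelium lay at 3428 to 3999 CPM in delta-POZ, 3156 to 4031 CPM in delta-Q and 3574 to 4348 CPM in Halo-Trl, with all 8 detected in every library. The sum hides opposite estimates in delta-POZ against Halo-Trl, log2 0.55 for ct (edgeR adjusted p = 0.0850) and -0.49 for sd (0.0931). The groups did not overlap for ct and sd, and overlapped for the other epithelial markers in that comparison. Markers of other cell types varied between libraries and groups: the 4 fat body markers summed to 12.5 to 40.7 CPM in delta-POZ, 371 to 4427 CPM in delta-Q and 7.74 to 2731 CPM in Halo-Trl, and the 5 blood cell markers to 145 to 579.7, 216 to 684 and 112 to 279 CPM in the same groups. The fat body ranges rest on single libraries. Halo-Trl 1 held 2731 CPM, against 7.74 and 23.0 CPM in Halo-Trl 2 and 3, and delta-Q 3 held 4427 CPM, against 371 and 629 CPM in delta-Q 1 and 2. Of the blood cell markers, NimC1 (log2 3.02, edgeR adjusted p = 0.0150) and He (2.71, 0.0128) were higher in delta-POZ than in Halo-Trl. The 5 myoblast markers summed to 279 to 327 CPM in delta-POZ, 226 to 247 CPM in delta-Q and 209 to 243 CPM in Halo-Trl, so that delta-POZ lay above both other groups. Among them zfh1 was higher in delta-POZ than in Halo-Trl (log2 0.75, edgeR adjusted p = 0.0209). The other myoblast markers were not called (edgeR adjusted p of at least 0.357), and their groups overlapped. In that comparison Him was at log2 0.29, Mef2 at 0.20, twi at 0.01 and htl at -0.20. The 3 neuron markers summed to 16.8 to 307 CPM in delta-POZ, with the highest value of each marker in delta-POZ 2, to 8.95 to 21.5 CPM in delta-Q and to 59.0 to 79.8 CPM in Halo-Trl. They did not move as one: elav made up most of the Halo-Trl sum, at 51.1 to 74.0 CPM there and 4.45 to 9.28 CPM in delta-Q, while nSyb (0.23 to 1.18 CPM in delta-Q and 0.10 to 0.83 CPM in Halo-Trl) and Syt1 (4.27 to 11.04 and 3.95 to 7.63 CPM) overlapped between these groups. Syt1 was higher in delta-POZ than in Halo-Trl (log2 2.99, edgeR adjusted p = 0.0452), at 112 CPM in delta-POZ 2. None of the listed markers of these cell types was at 0 in any library. The part of these cells in the results below, those for CycE, E2f1 and Myc included, was not tested. In bulk tissue, fewer cells of a type and less RNA per cell cannot be told apart.

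Dachsous and Fat, the ligand and the receptor of the cadherin pair, were at their highest in the same library. The level of ds was 1314, 886 and 1124 CPM in delta-POZ, 1582, 1271 and 1032 CPM in delta-Q, and 1006, 1093 and 1166 CPM in Halo-Trl. The 3 groups overlapped, and the delta-Q libraries covered a wider range than those of Halo-Trl. Group means were 1108 ± 214 CPM in delta-POZ, 1295 ± 276 CPM in delta-Q and 1088 ± 80.2 CPM in Halo-Trl (SD, n = 3 each). The log2 difference from Halo-Trl was 0.03 in delta-POZ (95% interval -0.38 to 0.43, edgeR adjusted p = 0.948) and 0.25 in delta-Q (-0.15 to 0.65, adjusted p = 0.864). A non-coding gene, lncRNA:CR44988, overlaps ds and held at most 26 reads in a library.

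For ft, delta-POZ libraries had 905, 644 and 703 CPM, delta-Q libraries 1206, 958 and 751 CPM, and Halo-Trl libraries 760.0, 776 and 799 CPM. Halo-Trl replicates differed from each other by a CV of 2.52%, against 18.3% in delta-POZ and 23.4% in delta-Q, and both deletion lines had libraries on each side of the Halo-Trl range. The genes differed in this: for wts and fj the CV was widest in Halo-Trl, at 13.1% and 16.5%. Median CVs over the 10 genes were 14.3% in delta-POZ, 16.1% in delta-Q and 7.87% in Halo-Trl. Over all tested genes they were 17.0%, 21.9% and 15.6% in the same order. The difference from Halo-Trl was log2 -0.05 in delta-POZ (-0.45 to 0.35, edgeR adjusted p = 0.89) and 0.32 in delta-Q (-0.08 to 0.72, adjusted p = 0.772). Between the deletions, ft had the largest estimate of the 10 genes, log2 0.37 for delta-Q against delta-POZ (-0.03 to 0.77, adjusted p = 0.275). Reads of ds per read of ft lay between 1.31 and 1.60 in the 9 libraries, while ft itself spanned 1.87-fold and ds 1.79-fold.

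Four-jointed is the Golgi kinase that phosphorylates the cadherin repeats of both proteins. Its gene fj had 269, 217.6 and 264 CPM in delta-POZ, 253, 269.5 and 269 CPM in delta-Q, and 207, 267 and 288 CPM in Halo-Trl. The lowest and the highest of the 9 values were both Halo-Trl libraries, so that both deletion lines lay inside the Halo-Trl range. The estimates were log2 -0.02 in delta-POZ (-0.32 to 0.28) and 0.06 in delta-Q (-0.25 to 0.36).

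Dachs, the myosin that lowers Warts activity when Fat signalling is weak, gave the smallest p of the 10 genes in delta-Q against Halo-Trl. The row named d, which the RefSeq gene table lists as dachs, had 402, 290.1 and 321 CPM in delta-POZ, 509, 405 and 342 CPM in delta-Q, and 290.4, 314 and 343 CPM in Halo-Trl. In delta-Q the libraries 1 and 2 lay above every Halo-Trl library, while delta-Q 3 lay just under Halo-Trl 3, so the groups overlapped. Means were 419 ± 84.3 CPM in delta-Q and 316 ± 26.4 CPM in Halo-Trl (SD, n = 3 each), a log2 difference of 0.41 (0.04 to 0.78, unadjusted p = 0.0348, edgeR adjusted p = 0.555). The estimate was 0.24 without delta-Q 1 (adjusted p = 0.782). In delta-POZ it was 0.10 (-0.27 to 0.47, adjusted p = 0.77). Per read of ft, d lay between 0.382 and 0.457 in the 9 libraries.

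**Figure D1:**
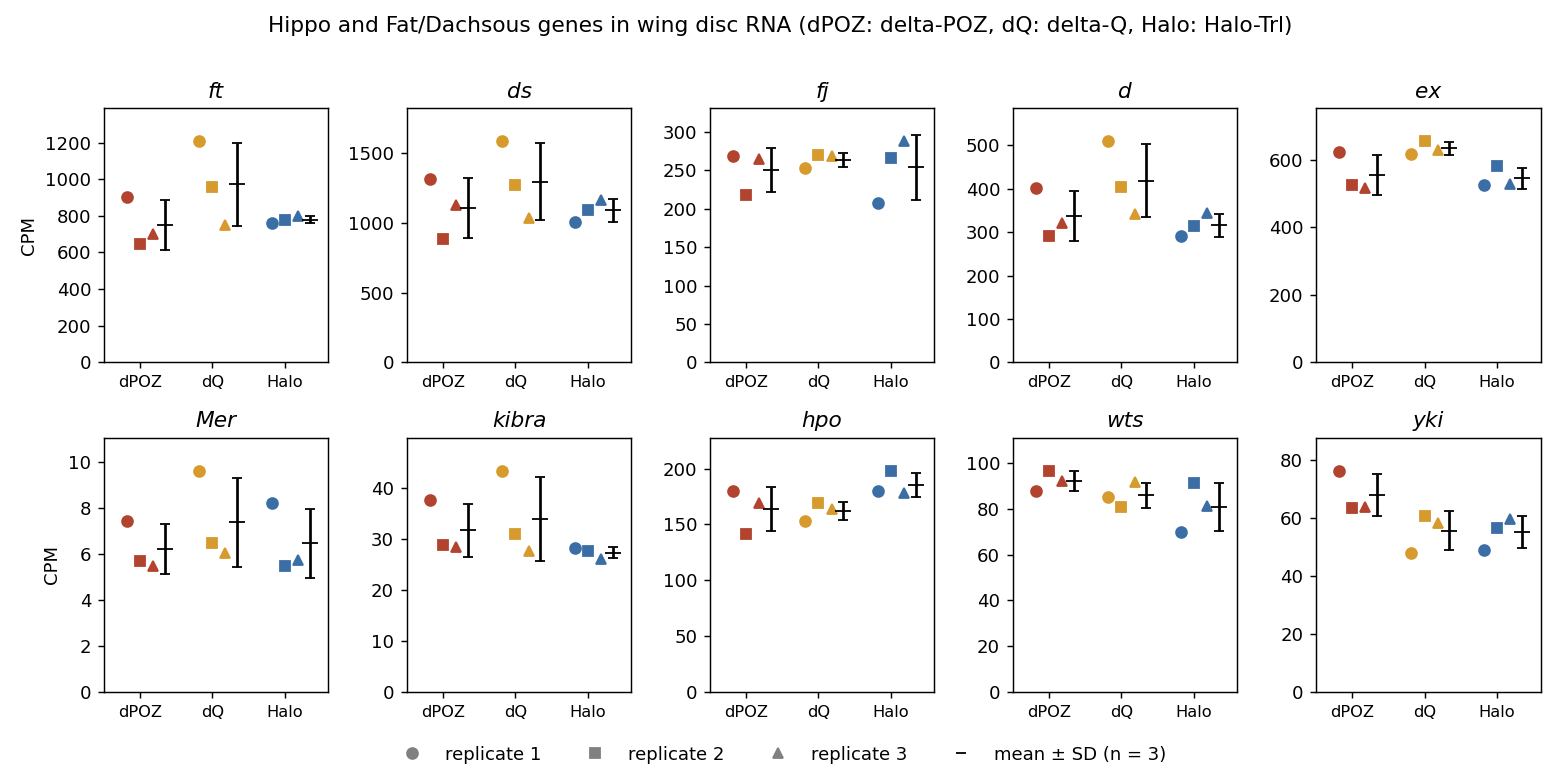
Levels of the 10 genes in CPM (vertical axes, from 0) in 3 libraries each of delta-POZ, delta-Q and Halo-Trl; symbols are replicates and bars the mean ± SD. The delta-Q 1 library is the highest of the 9 for ft, ds, d, Mer and kibra, and only yki, kibra, ex and hpo have a deletion line whose libraries lie apart from those of Halo-Trl. The share of all genes at their highest in delta-Q 1 is not given.

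Among the upstream regulators, expanded was the only one whose delta-Q libraries all lay above those of Halo-Trl. Expanded is a FERM-domain protein of the apical cortex and also a reported transcriptional target of Yorkie, so that it takes part in a feedback loop. The level of ex was 623, 526 and 517 CPM in delta-POZ, 618, 654 and 629 CPM in delta-Q, and 526, 581 and 528 CPM in Halo-Trl. The gap between the lowest delta-Q and the highest Halo-Trl library was small, and delta-POZ overlapped both groups. Means were 633 ± 18.7 CPM in delta-Q and 545 ± 31.5 CPM in Halo-Trl (SD, n = 3 each; log2 0.22, -0.02 to 0.45, edgeR adjusted p = 0.695). In delta-POZ the estimate was 0.03 (-0.21 to 0.26). The gene crq, which overlaps ex, held 3472 to 10630 reads in a library. The sources used here do not say whether counting used strand, so reads shared by these genes cannot be assigned.

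Merlin, the FERM-domain relative of Expanded, had the fewest reads of the 10 genes, 319 to 827 in a library. Its gene Mer was at 7.45, 5.72 and 5.47 CPM in delta-POZ, 9.61, 6.50 and 6.04 CPM in delta-Q, and 8.21, 5.47 and 5.76 CPM in Halo-Trl. Replicate 1 was the highest in each genotype, and all groups overlapped. The intervals were the widest of the set, log2 -0.06 in delta-POZ (-0.64 to 0.52) and 0.19 in delta-Q (-0.39 to 0.77).

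Kibra, a WW-domain scaffold that works with Merlin and Expanded, lay above Halo-Trl in all delta-POZ libraries by a narrow margin. The values of kibra were 37.7, 28.8 and 28.5 CPM in delta-POZ, 43.3, 31.0 and 27.6 CPM in delta-Q, and 28.2, 27.6 and 26.1 CPM in Halo-Trl. The CV was 16.5% in delta-POZ, 24.3% in delta-Q and 3.92% in Halo-Trl, and the high values of both deletion lines came from their replicate 1. The log2 difference from Halo-Trl was 0.21 in delta-POZ (-0.19 to 0.61, edgeR adjusted p = 0.505) and 0.31 in delta-Q (-0.09 to 0.71, adjusted p = 0.776). Without delta-POZ 1 and delta-Q 1 in turn these estimates were 0.07 and 0.10.

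The core kinases gave small estimates of opposite sign. For hpo the values were 179.8, 142 and 169.6 CPM in delta-POZ, 153, 169.6 and 164 CPM in delta-Q, and 180.1, 198 and 178 CPM in Halo-Trl. The delta-Q libraries all lay below those of Halo-Trl, and delta-POZ 1 reached into the Halo-Trl range. The difference was log2 -0.18 in delta-POZ (-0.42 to 0.06, edgeR adjusted p = 0.34) and -0.19 in delta-Q (-0.44 to 0.05, adjusted p = 0.772). The neighbouring gene Rep overlaps hpo and held 910 to 1662 reads in a library.

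Warts, the kinase that phosphorylates Yorkie, was at 87.7, 96.5 and 92.1 CPM in delta-POZ, 85.0, 80.8 and 91.8 CPM in delta-Q, and 70.0, 91.1 and 81.0 CPM in Halo-Trl. Halo-Trl 1 was the lowest of the 9 values of wts, and the groups overlapped. Estimates were log2 0.19 in delta-POZ (-0.06 to 0.44, edgeR adjusted p = 0.323) and 0.09 in delta-Q (-0.16 to 0.34, adjusted p = 0.953).

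Yorkie, the co-activator on which the pathway converges, had the smallest p of the set in delta-POZ. The level of yki was 76.3, 63.5 and 64.0 CPM in delta-POZ, 48.0, 60.7 and 58.3 CPM in delta-Q, and 49.1, 56.7 and 59.6 CPM in Halo-Trl. Every delta-POZ library was above every library of the other lines, with delta-POZ 1 well above the remaining 8, and delta-Q and Halo-Trl overlapped. Means were 67.9 ± 7.26 CPM in delta-POZ, 55.7 ± 6.71 CPM in delta-Q and 55.2 ± 5.44 CPM in Halo-Trl (SD, n = 3 each). The difference between delta-POZ and Halo-Trl was log2 0.30 (0.01 to 0.59, unadjusted p = 0.0415, edgeR adjusted p = 0.172), and that between delta-Q and Halo-Trl 0.01 (-0.27 to 0.30, adjusted p = 0.996). The estimate for delta-Q against delta-POZ was log2 -0.29 (-0.57 to -8.36e-04, unadjusted p = 0.0495, adjusted p = 0.244). None of these passed the adjusted threshold of 0.05.

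Over the set, 0 of 10 genes were called in delta-POZ against Halo-Trl, where 10.1% of all tested genes were called by edgeR at an adjusted p under 0.05. Likewise 0 of 10 were called in delta-Q against Halo-Trl, where the background was 0.656%, and 0 of 10 in delta-Q against delta-POZ, where it was 4.6%. DESeq2 also called 0 in each. At an unadjusted p under 0.05 each comparison had 1 of the 10 genes, against 26%, 7.82% and 20.3% of all genes in the same order. The groups did not overlap for 2 genes in delta-POZ against Halo-Trl (yki and kibra, both higher), where 33% of all genes did not overlap and 16.2% did so with delta-POZ higher. In delta-Q against Halo-Trl they did not overlap for ex (higher) and hpo (lower), beside 13.1% of all genes, 7.36% higher and 5.74% lower. In delta-Q against delta-POZ this held for yki (lower), beside 24.2% of all genes, with 10.9% lower.

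The 10 intervals give an upper bound on the size of a difference. In delta-POZ against Halo-Trl they ran from log2 -0.64 to 0.61, in delta-Q against Halo-Trl from -0.44 to 0.78, and in delta-Q against delta-POZ from -0.57 to 0.83. The interval lay within log2 1 of 0 for 51.3%, 57.6% and 52.6% of all tested genes in these comparisons. Differences of log2 0.5 were outside the interval for 7, 5 and 5 of the 10 genes, and the intervals of the others still held a difference of that size. Estimates were higher for 6 and lower for 4 genes in delta-POZ (median log2 0.03, all genes -0.01), 9 and 1 in delta-Q (0.20, all genes 0.02), and 7 and 3 in delta-Q against delta-POZ (0.15, all genes 0.02). These comparisons share libraries, so their estimates are not independent of each other. The counts also rest on single libraries. Without delta-Q 1, estimates in delta-Q against Halo-Trl were higher for 8 and lower for 2 genes (median log2 0.10, all genes -0.01). Leaving out Halo-Trl 1 instead gave 6 higher and 4 lower in that comparison (median 0.19, all genes 0.04). Without delta-POZ 1, those in delta-POZ against Halo-Trl were higher for 3 and lower for 7 (median -0.07, all genes -0.01).

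**Figure D2:**
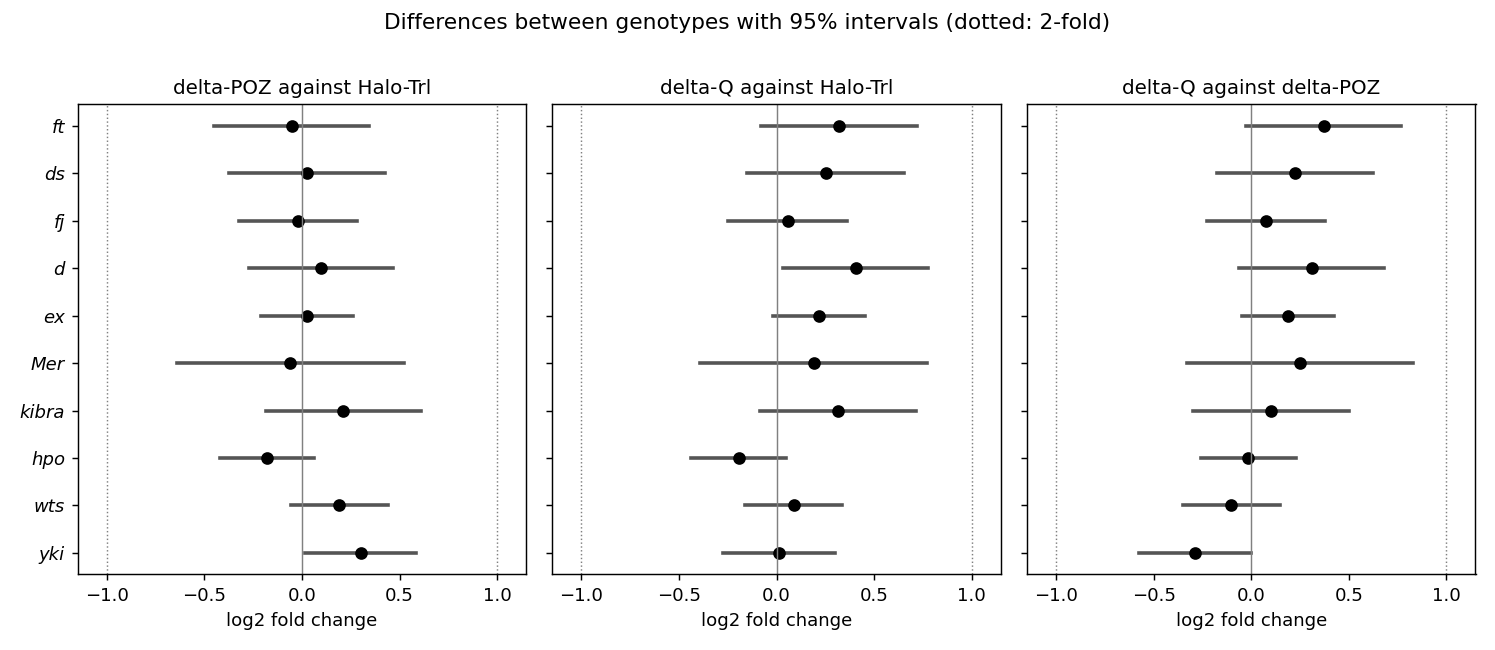
Log2 fold changes (points) with 95% intervals (bars) of the 10 genes in the 3 comparisons, with 0 as a solid line and 2-fold as dotted lines. Every interval lies between the dotted lines, and only those of yki in 2 comparisons and d in delta-Q against Halo-Trl leave out 0.

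Several of the genes were high or low in the same libraries. Each value was set against the gene's own mean over the 9 libraries on the log2 CPM scale. In delta-POZ 1 all 10 genes were above their mean, whereas delta-POZ 2 had 2 and delta-POZ 3 had 3 above it. The delta-Q libraries had 6, 7 and 3 genes above their mean, and the Halo-Trl libraries 2, 4 and 4. Delta-Q 1 held the highest value of 5 genes (ft, ds, d, Mer and kibra), while it held the lowest value of yki, and delta-POZ 2 held the lowest value of 4 genes (hpo, ft, ds and d). The share of all tested genes above their mean, or at their highest, in each library is not given here. These counts therefore describe the 10 genes alone and cannot show that they moved apart from other genes.

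The excess in delta-Q 1 over the mean of delta-Q 2 and 3 was log2 0.51 for ft, 0.47 for ds, 0.45 for d, 0.57 for kibra and 0.62 for Mer. In delta-POZ 1 the same 5 genes lay 0.43, 0.40, 0.40, 0.40 and 0.41 above the mean of delta-POZ 2 and 3. In Halo-Trl 1 they stood at -0.05, -0.17, -0.18, 0.07 and 0.55 relative to Halo-Trl 2 and 3. Of all 10 genes, 6 span at least 10 kb in the RefSeq annotation: ft, ds, d and kibra, and also wts and ex, which did not share the excess in delta-Q 1 (-0.02 for wts and -0.05 for ex) and stood at -0.10 and 0.26 in delta-POZ 1. The 1695 tested genes of that span had median shifts of -0.04 in delta-Q 1, 0.00 in delta-POZ 1 and -0.08 in Halo-Trl 1. Delta-Q 1 also had the lowest mitochondrial share; its part in the pattern was not tested. Without delta-Q 1, the estimates against Halo-Trl were 0.13 for ft, 0.08 for ds and -0.05 for Mer. Without delta-POZ 1, those of ds, d and ex in delta-POZ were -0.12, -0.05 and -0.07.

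**Figure D3:**
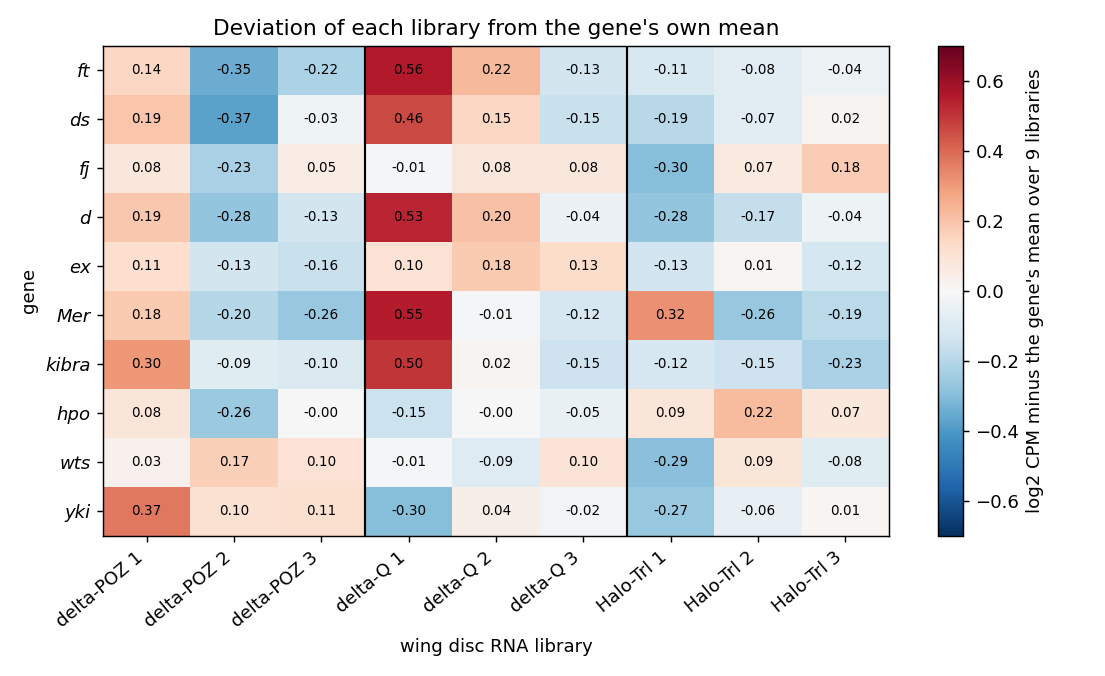
Log2 CPM of each gene (down the page) in each library (across) minus the gene's mean over 9 libraries, printed in the cells and shown as colour, red above and blue below the mean. The delta-POZ 1 column is above the mean for all 10 genes, and delta-Q 1 is highest for 5 of them. The same shares over all genes are not given.

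Across the 9 libraries, the genes whose pattern was closest to yki were homer, CG31998 and CG17834, with root mean square differences of 0.0743, 0.0779 and 0.0798 in centred log2 CPM, where yki itself varied by 0.19. Closest to d, which varied by 0.25, were ec, kst and CG8833 (0.0719, 0.0753 and 0.0757). Likeness was ranked over 10358 other genes and describes these libraries only.

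Other genes of the pathways were taken as 6 lists with 61 genes, of which 60 were tested. In delta-POZ against Halo-Trl edgeR called 2 higher and 1 lower, 5% of those tested. There, 10.1% of all genes were called, 4.93% higher and 5.2% lower. In delta-Q against Halo-Trl 0 were called by edgeR or DESeq2, with 1 at an unadjusted edgeR p under 0.05. The smallest edgeR adjusted p there was 0.567, for sav. In delta-Q against delta-POZ edgeR called 1 higher (1.67%, where 3.05% of all genes were higher). The medians over the 60 genes were log2 0.09, 0.11 and -0.01. DESeq2 called 7 of the 60 higher and 2 lower in delta-POZ against Halo-Trl, where it called 870 of all 10359 genes higher and 767 lower. In delta-Q against delta-POZ it called 1 of the 60 higher and 3 lower, beside 530 higher and 465 lower of all genes. With the replicate block or without delta-POZ 3 or any single Halo-Trl library, edgeR called 0 of the 60 higher and 1 lower in delta-POZ. With TMM, the filterByExpr filter and all 9 libraries, the edgeR calls fell in the list of 12 tested genes reported as Yorkie targets, whose median was log2 0.23 in delta-POZ and 0.13 in delta-Q.

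Cyclin E (CycE), which drives entry into S phase, had 147, 116 and 130.3 CPM in delta-POZ, 89.7, 111 and 105 CPM in delta-Q, and 90.04, 99.5 and 94.2 CPM in Halo-Trl. All delta-POZ values were above the other 6, and the gene was higher than in Halo-Trl (log2 0.47, SE 0.12, edgeR adjusted p = 0.0304). E2f1, the transcription factor of the same cell-cycle step, had 423, 414 and 391 CPM in delta-POZ, 255, 293 and 359 CPM in delta-Q, and 276, 312 and 276 CPM in Halo-Trl. It too was higher in delta-POZ (log2 0.51, SE 0.13, adjusted p = 0.0361). The calls are fragile: that of CycE was lost with a replicate block and without delta-POZ 1, delta-POZ 3 or any Halo-Trl library (adjusted p 0.0572 to 0.111), and that of E2f1 in 9 of 18 alternatives, among them leaving out any delta-POZ or Halo-Trl library or delta-Q 2 (up to 0.139).

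Myc, the growth regulator, moved the other way. It was at 251, 236 and 279 CPM in delta-POZ, 696, 1039 and 1069 CPM in delta-Q, and 811, 1075 and 985 CPM in Halo-Trl. The delta-POZ libraries were far below all others, while delta-Q and Halo-Trl overlapped. The difference was log2 -1.91 in delta-POZ against Halo-Trl (SE 0.18, edgeR adjusted p = 2.84e-04) and 1.87 in delta-Q against delta-POZ (SE 0.18, adjusted p = 5.65e-04), and both calls were kept in 18 of 18 alternatives. CycE, E2f1 and Myc overlap non-coding or small genes that held at most 148 reads in a library.

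**Figure D4:**
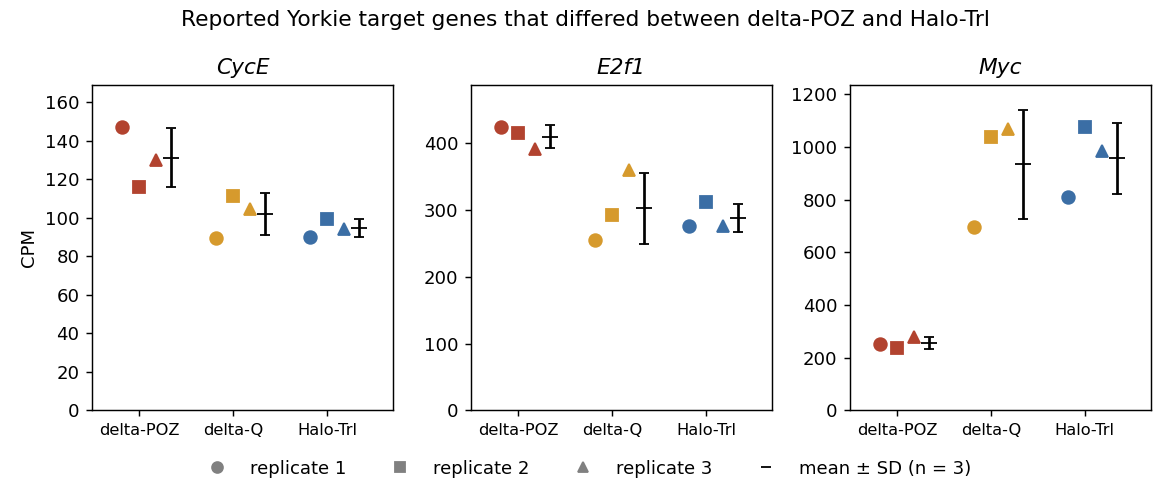
CPM of CycE, E2f1 and Myc (vertical axes, from 0) in 3 libraries each of delta-POZ, delta-Q and Halo-Trl, with bars for the mean ± SD. The delta-POZ libraries lie above all others for CycE and E2f1 and below all others for Myc, at 236 to 279 CPM.

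With the same normalization, filter and libraries, edgeR called no gene of the other 5 lists. Among the 8 partners of the core cassette (median log2 0.11 in delta-POZ), Wbp2, which binds Yorkie, had log2 0.48 in delta-POZ (edgeR adjusted p = 0.0587) and scalloped (sd), its DNA-binding partner, -0.49 (adjusted p = 0.0931). In delta-Q, salvador (sav), the scaffold of Hippo and Warts, had 0.57 and sd -0.29 (adjusted p = 0.777). In the Fat and Dachsous branch (6 genes, median -0.11 in delta-POZ), approximated (app), the palmitoyltransferase that acts on Dachs, had 0.29 (adjusted p = 0.119) and Grip -0.59 (0.279).

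The 13 apical and junctional regulators had a median of log2 0.04 in delta-POZ, with Schip1 at 1.26 (edgeR adjusted p = 0.113) and Zyx at 0.25 (0.236), and 0.10 in delta-Q, with Tao, a kinase that activates Hippo, at -0.16 (0.777). Among the 11 other kinases and antagonists (median 0.03 in delta-POZ), the salt-inducible kinase gene Sik2 had 2.08 (adjusted p = 0.0675) and misshapen (msn), a kinase that can act on Warts, 0.27 (0.105). Sik2 rested in part on delta-POZ 2, the library with the highest neuron markers, and was at log2 1.09 without it. The 10 planar polarity genes, core genes and effectors together, had a median of 0.10 in delta-POZ. There the effector genes inturned (in) and fritz (frtz) were at 0.44 (0.0799) and 0.52 (0.142). The core genes fz, dsh, pk, stan, Vang and dgo were at log2 0.08, -0.22, 0.12, 0.05, 0.09 and 0.01. In DESeq2, Wbp2, sd, Sik2, in and msn passed the threshold in delta-POZ (adjusted p 0.0127 to 0.0314). Other edgeR settings also called some of them in delta-POZ against Halo-Trl. Wbp2 passed with a mean CPM of at least 1 (adjusted p = 0.0489), with the 2 genotypes alone (0.0180) and without delta-Q 1 (0.0207), delta-Q 2 (0.0334) or delta-POZ 1 and delta-Q 1 together (0.0297). Sik2 passed without delta-POZ 1 (0.0448), in without delta-POZ 2 (0.0425), and sd without delta-POZ 1 and delta-Q 1 together (0.0476).

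Chromatin contacts gave a second readout at 2 of the 10 genes. Of 209 loops in the authors' wing disc list, 1 is labelled ds and 1 kibra, and the other 8 genes are not named. Anchors of the ds loop lie 12.8 kb from each other, at 2L:699501-704500 and 2L:712301-717300. Those of the kibra loop, at 3R:14704501-14709500 and 3R:14720101-14725100, lie 15.6 kb from each other. The sources used here do not name the genome build. Both are short beside the median of 30.8 kb over all loops.

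The ds loop held 138 and 122 normalised contacts in the delta-POZ maps, 113 and 149.7 in the delta-Q maps, and 117 and 122 in the Halo-Trl maps. The groups overlapped, and the delta-Q maps spanned the others. The difference from Halo-Trl was log2 0.11 in delta-POZ (-0.23 to 0.46, edgeR adjusted p = 0.842) and 0.13 in delta-Q (-0.22 to 0.49, adjusted p = 0.988). The kibra loop held 151 and 145 normalised contacts in delta-POZ, 144 and 149.7 in delta-Q, and 134 and 168 in Halo-Trl. The Halo-Trl maps enclosed all the others. The estimates were log2 -0.03 (-0.37 to 0.30, adjusted p = 0.946) in delta-POZ and -0.05 (-0.39 to 0.30, adjusted p = 0.988) in delta-Q. Against delta-POZ, delta-Q differed by 0.02 for ds and -0.02 for kibra (adjusted p = 0.999 for both).

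Thus 0 of these 2 loops were called in any comparison, where 4.31% of all loops were called in delta-POZ against Halo-Trl, 0% in delta-Q against Halo-Trl and 4.31% in delta-Q against delta-POZ. DESeq2 called neither loop, and neither had an unadjusted p under 0.05. The 95% intervals of both loops lay within log2 0.5 of 0. Smaller differences lie within these intervals.

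**Figure D5:**
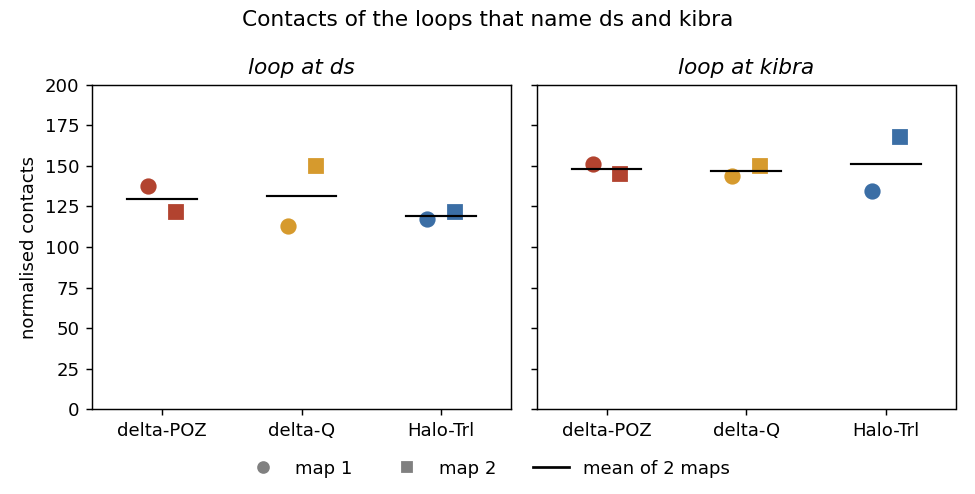
Normalised contacts (vertical axis, from 0) of the loops labelled ds and kibra in 2 wing disc maps each of delta-POZ, delta-Q and Halo-Trl, with the mean as a line. All 12 values lie between 113 and 168, and the genotypes overlap at both loops.

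Loops labelled with genes of the pathway lists were 4 in number, tsh/tio, tsh, ban and hth, and edgeR and DESeq2 called 0, with tsh/tio and tsh at an unadjusted p under 0.05 in both comparisons with delta-POZ. Teashirt (tsh) and Homothorax (hth) encode Yorkie partners and bantam (ban) is a microRNA target of Yorkie. The tsh/tio loop held 22.2 and 20.9 normalised contacts in delta-POZ, 33.9 and 39.8 in delta-Q, and 28.6 and 42.0 in Halo-Trl, and the delta-POZ maps lay below the others (log2 -0.72 against Halo-Trl, edgeR adjusted p = 0.107). The shares of all loops without overlap, or at an unadjusted p under 0.05, are not given here. The shorter tsh loop held 43.4 and 70.5 in delta-POZ, 96.1 and 85.7 in delta-Q, and 72.5 and 99.7 in Halo-Trl (log2 -0.58, adjusted p = 0.107). Delta-Q against delta-POZ gave log2 0.77 (adjusted p = 0.0873) and 0.65 (0.0549) for these loops. The tsh difference passed the threshold without delta-POZ 2 (adjusted p = 0.0125 against Halo-Trl and 0.0092 for delta-Q against delta-POZ) and that of tsh/tio against Halo-Trl without Halo-Trl 1 (0.033). For ban the estimates were log2 -0.19 in delta-POZ and 0.07 in delta-Q, and for hth -0.13 and 0.02, with adjusted p of at least 0.808.

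Embryo contact maps gave 186 loops, of which 0 name any of the 10 genes and 3 name a gene of the pathway lists. These maps came from embryos aged 2 to 2.5 h: 4 maps of GAF(deGradFP), in which GAF is depleted through deGradFP, a system that degrades GFP-tagged protein, and 4 maps of the sfGFP-GAF(N) control, read here as carrying the tagged GAF without depletion. They held 1715 to 7347 contacts in all loops, fewer than the wing disc maps. The labels do not say whether maps of a group came from separate collections, so the spread between them may be technical.

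The loop labelled upd2/upd1 joins X:18243001-18244600 and X:18311801-18313400. Both genes encode secreted JAK/STAT ligands of the Unpaired family and stand in the list of reported Yorkie targets. It held 22.4, 23.2, 17.1 and 24.2 normalised contacts in GAF(deGradFP), against 32.6, 59.1, 42.2 and 27.7 in the control. Raw contacts were 26, 30, 18 and 23 in GAF(deGradFP) and 27, 70, 13 and 34 in the control. The value of control 3 thus rests on 13 contacts. In normalised contacts, all GAF(deGradFP) maps lay below all control maps, with the control maps spread more widely. The share of all loops whose groups do not overlap is not given here. The difference was log2 -0.89 (SE 0.25, -1.41 to -0.38, edgeR adjusted p = 0.0477), in a fit that called 2.15% of all loops lower and 0.538% higher. The call was lost without GAF(deGradFP) 1 (adjusted p = 0.121), 2 (0.0647) or 3 (0.139) and without control 2 (log2 -0.57, adjusted p = 0.379) or 3 (0.0556), and DESeq2 did not make it (adjusted p = 0.111).

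The tsh/CG11629 loop, at 2L:21827801-21829400 and 2L:21898601-21900200, held 62.9, 47.9, 52.3 and 45.3 normalised contacts in GAF(deGradFP), against 30.2, 35.5, 22.7 and 31.8 in the control. The value of control 3 rests on 7 raw contacts. Here all GAF(deGradFP) maps lay above all control maps in normalised contacts, again without a share over all loops to set beside it. The difference of log2 0.73 (SE 0.21, 0.29 to 1.17) narrowly missed the threshold (edgeR adjusted p = 0.0505) and passed it without GAF(deGradFP) 4 (0.0069) and with a minimum of 50 contacts (0.0429). The loop labelled Myc/CG12535, after the growth regulator Myc, held 7.38 to 15.5 normalised contacts in GAF(deGradFP) and 6.50 to 21.2 in the control, overlapping groups (log2 -0.51, -1.18 to 0.17, adjusted p = 0.475). Contacts were few at this loop, at 2 to 26 in a map.

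The groups behind the authors' deposited RNA table are not named in it, and there 0 of the 10 genes had an adjusted p under 0.05. The smallest was that of yki (log2 0.32, adjusted p = 0.134). In that table yki, hpo and d were at log2 0.32, -0.16 and 0.12, against 0.30, -0.18 and 0.10 in delta-POZ against Halo-Trl here. In delta-Q against Halo-Trl they were at 0.01, -0.19 and 0.41. It is therefore read as delta-POZ against Halo-Trl in the same libraries, not as a separate result. In the authors' deposited loop tables the ds and kibra loops had adjusted p of 0.987 in the delta-POZ table and 0.998 in the delta-Q table.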

How the data were processed

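RNA was read from 9 wing disc libraries and contacts from 6 wing disc maps and 8 embryo maps. The submitters' processing notes name featureCounts, BWA, bedtools and DESeq2, without versions, and the sources used here name neither build nor strand setting. Both tables hold raw counts as deposited by the authors, per gene and per loop. The authors' deposited comparison tables hold a log2 fold change and a p-value for each gene or loop. Columns named wt in the wing disc contact table were taken as Halo-Trl, the genotype left without columns of its own, and embryo columns named GAF_KO and GFP_GAF as GAF(deGradFP) and the sfGFP-GAF(N) control.

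The test was the quasi-likelihood F test of edgeR 4.0.16 under R 4.3.3 (glmQLFit, glmQLFTest, TMM normalization, genotype as the only term, all 3 genotypes in 1 fit, and the 2 embryo groups in another). Genes were filtered with filterByExpr, and loops needed at least 10 contacts over the maps. Benjamini-Hochberg adjustment ran over all genes or loops, with calls under 0.05. Standard errors were taken from the F statistic and the log2 fold change, and 95% intervals follow from them. Normalised contacts are scaled to the mean effective map size, and a loop's difference is therefore relative to the rest of the list. Depth was 57673928 to 85575887 reads per RNA library and 23944 to 31995 contacts per wing disc map and 1715 to 7347 per embryo map. Empty cells of the embryo table, none at a printed loop, were read as 0.

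Names and overlaps come from a RefSeq gene table (Release 6 plus ISO1 MT), whose coordinates are not printed. CPM was not divided by gene length, so genes are not ranked by their level. Gene spans served only to group genes, as at 10 kb. Ratios of reads, such as ds per read of ft, serve to compare libraries. The 10 genes, the lists and the tests were chosen with earlier results of these data known. Named genes are the 10 members, Trl and up to 4 called genes per list (or up to 2 with the smallest p). The 3 genes most like the members with the smallest p in each deletion line, and loops that name a member or list gene, are named too. Not all that this allows are printed. The uncalled myoblast and neuron markers are also named, to show where a list did not move as one. The labels call RNA and wing disc map replicates biological; whether the pools came from separate crosses is not stated. The test was tried on simulated counts. CUT&Tag samples were not analysed here. Alternatives were other normalizations and filters, DESeq2 1.42.0, fits of 2 genotypes, a replicate block, leaving out each replicate and, chosen after seeing the data, leaving out delta-POZ 1 and delta-Q 1 together.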

Additional observations from a re-analysis of the deposited data

How the results depend on the processing

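None of the 10 genes was called in any of 18 alternatives in the 3 comparisons (540 tests, smallest adjusted p 0.102, for yki in delta-POZ against Halo-Trl without delta-Q 1), and the ds and kibra loops were called in none. The number of all genes called moved more. In delta-POZ against Halo-Trl it was 1050, with 1637 by DESeq2 and 411 to 1258 when 1 replicate was left out. In delta-Q against Halo-Trl it was 68, with 232 by DESeq2 and 21 to 89. In delta-Q against delta-POZ it was 477, with 995 by DESeq2, 263 with the 2 genotypes alone, 237 without delta-POZ 1 and delta-Q 1 together and 237 to 447 with 1 replicate left out. The cause was not tested.

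Same-numbered samples were compared by their deviations, which cannot show whether replicates were prepared together. Those of RNA libraries correlated at -0.117 to 0.178, over 0.1 in 1 of 9 pairs, that of delta-POZ 1 and delta-Q 1. Embryo maps gave -0.0834 to 0.159, over 0.1 in 1 of 4 pairs. Wing disc maps gave -0.262 to -0.0569, and with 2 maps per genotype both replicate numbers give the same value. With the replicate block the counts of genes called were 951, 45 and 410, and 0 of the 10 genes were called.

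Estimates near 0 changed sign, none of them called. In delta-POZ against Halo-Trl, fj was 0.0015 with RLE and 0.0016 with DESeq2, and without delta-POZ 1 and delta-Q 1 together ds was -0.11, d -0.043 and ex -0.062. In delta-Q against Halo-Trl, yki was -0.010 with upper quartile scaling and -2.81e-05 without a filter, and Mer was -0.0497 without both libraries. In delta-Q against delta-POZ, hpo was 0.0945 without both. With 1 replicate left out, delta-POZ against Halo-Trl ranged over -0.12 to 0.17 for ds, -0.049 to 0.20 for d, -0.066 to 0.075 for ex, -0.21 to 0.053 for ft, -0.15 to 0.080 for fj and -0.21 to 0.14 for Mer. Delta-Q against Halo-Trl ranged over -0.064 to 0.11 for yki, -0.0037 to 0.19 for wts, -0.071 to 0.16 for fj and -0.0494 to 0.40 for Mer. Delta-Q against delta-POZ ranged over -0.13 to 0.063 for hpo, -0.041 to 0.14 for fj and -0.12 to 0.25 for kibra. For loops with 1 map left out, kibra ranged over -0.19 to 0.13 in delta-POZ, -0.20 to 0.12 in delta-Q and -0.045 to 0.013 between the deletions. The ds loop ranged over -0.079 to 0.31 in delta-Q and -0.19 to 0.21 between the deletions, ban over -0.46 to 0.061 in delta-POZ and -0.074 to 0.24 in delta-Q, hth over -0.34 to 0.11 and -0.18 to 0.26, and in delta-Q tsh over -0.13 to 0.32 and tsh/tio over -0.19 to 0.35. A lone map is assumed to vary like the other groups. Of the 3 embryo loops naming a list gene, edgeR called 1, with 2 at a minimum of 50 contacts, 0 by DESeq2, 0 with the replicate block (upd2/upd1 adjusted p 0.0766) and 0 to 2 with 1 map left out. All 3 kept their direction in these settings, with RLE and without a filter. With 3 libraries or 2 wing disc maps per genotype, the intervals limit which small differences can be seen.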
